A study of Rattus norvegicus with 12 samples.

Results

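The genes described here encode the proteins with which a rat cell detects double-stranded RNA and passes the signal on. They were taken from a list of 9 genes, written as 10 symbols because Ddx58 and Rigi are the older and newer names of the gene for RIG-I. A gene was included when its symbol stood in the table of normalized counts, which held 12271 genes. By that rule 8 of the 9 were found, namely Ddx58, Ifih1, Dhx58, Eif2ak2, Tlr3, Mavs, Tbk1 and Ikbke, and all 8 had a mean normalized count of at least 10 over the libraries and were tested. Ticam1, which encodes the adaptor of TLR3, was not analysed here.

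RNA was sequenced from fibroblasts cultured from the heart ventricles of Sprague Dawley rats at postnatal day 2, a primary culture and not a cell line. The 4 groups of 3 libraries, 12 in all, had received MISSION Universal Negative Control #1 and #2 (negative siRNA), siRNA against Yap, siRNA against Wwtr1 (the gene of TAZ), or siRNA against both (double knockdown). A target was given 2 siRNAs at 25 nM. The labels put collection at 48 hours after transfection, and the cell culture methods of the study give that length for the transfection. The RNA methods of the study instead count it from a medium change made the day after transfection. Hence the control cells too had received short double-stranded RNA, and no library of untransfected cells was analysed. For the double knockdown, the treatment label lists the Wwtr1 siRNAs alone, although the titles give both targets, and the total amount of siRNA per dish in that group and in the control group is not given in the sources used here. In the double knockdown, the amount of RNA transfected and the loss of both targets cannot be told apart. In every knockdown group, the siRNA sequences differed from those of the control along with the loss of the target. These cannot be told apart either. Myocytes are named as the cultured cells in the design text, whereas title, labels and study give fibroblasts.

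Double-stranded RNA in the cytosol is bound by the RIG-I-like receptors. RIG-I (Ddx58) binds duplex ends that carry a triphosphate, MDA5 (Ifih1) binds long duplexes, and LGP2 (Dhx58) binds RNA but lacks the domains that signal. The first pair pass the signal to MAVS (Mavs) on mitochondria, whereas TLR3 (Tlr3) reads RNA in endosomes and uses TICAM1. Both routes reach the kinases TBK1 (Tbk1) and IKK-epsilon (Ikbke), which phosphorylate the transcription factors IRF3 and IRF7 and so turn on type I interferon. PKR (Eif2ak2) is a kinase that double-stranded RNA activates and that halts translation by phosphorylating eIF2 alpha. Several of these sensors are themselves interferon-stimulated genes, in fibroblasts as in most cells.

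Normalized counts summed to between 34195901 and 37249056 per library. They are bulk values, so fewer cells of a type and less RNA per cell cannot be told apart. Yap1 fell by 82.3% in mean normalized count after Yap knockdown and fell by 70.1% in the double knockdown, and Wwtr1 fell by 76.3% after Wwtr1 knockdown and fell by 63.9% in cells given both. Depletion was less complete in double knockdown replicate 3, where Yap1 stood at 1474 (713 and 739 in the others) and Wwtr1 at 1056 (818 and 731). Of the marker lists, cardiomyocyte genes (12 of 12 analysed) summed to 45174 to 100960 per library, and every knockdown group overlapped the controls. Fibroblast genes (11 of 12) summed to 2852910 to 3363620 with negative siRNA, 3581340 to 3749840 after Yap knockdown, wholly above the controls, 2912750 to 3119460 after Wwtr1 knockdown and 2669480 to 3854880 in the double knockdown. Endothelial genes (10 of 10) summed to 4656 to 5129 in the controls, 3930 to 4350 after Yap knockdown (wholly below), 5854 to 6271 after Wwtr1 knockdown (wholly above) and 4509 to 5568 in the double knockdown. Macrophage genes (13 of 14) summed to 23909 to 34468 with negative siRNA, 20428 to 30105 after Yap knockdown and 12658 to 21165 after Wwtr1 knockdown, and to 7513, 14924 and 51689 in double knockdown replicates 1, 2 and 3. The fibroblast and endothelial sums follow their most abundant genes. Col1a1, Col1a2 and Col3a1 averaged 1673690, 717694 and 571500 over the 12 libraries, and Flt1 averaged 3154. Next came Postn at 125086 among the fibroblast genes and Tek at 574 among the endothelial genes. The part of these marker differences in the results was not tested.

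The cytosolic sensors were present with negative siRNA and several times higher in every knockdown group, while Mavs fell after Wwtr1 knockdown, Tbk1 passed no test against the controls, and Tlr3 and Ikbke rose when both siRNAs were given. All values below are normalized counts, which are not divided by transcript length, so levels are compared between groups and not between genes. Fold changes in normalized count are ratios of group means, while log2 fold changes come from limma on log2(normalized count + 1). Group differences were tested with adjusted p-values (Benjamini-Hochberg over the 11871 genes tested, limit 0.05, two-sided).

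Ddx58 stood at 693, 1065 and 699.7 in the 3 negative siRNA libraries. It reached 7433, 4999 and 3205 after Yap knockdown, 8439, 6273 and 2554 after Wwtr1 knockdown, and 9042, 9299 and 7567 in the double knockdown. Every knockdown library was above every negative siRNA library, and the double knockdown was the most even of the 3 groups. Group means were 819 ± 213 (SD, n = 3), 5212 ± 2122, 5755 ± 2977 and 8636 ± 935, a rise of 6.36-fold, 7.03-fold and 10.5-fold. On the log2 scale the rises were 2.62 (SE 0.39, limma adjusted p = 0.00523), 2.68 (adjusted p = 0.00178) and 3.42 (adjusted p = 7.92e-05).

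Ifih1 stood at 444, 776 and 436 with negative siRNA. After Yap knockdown it stood at 2669.95, 2267 and 1631, after Wwtr1 knockdown at 4005, 3281 and 1523, and in the double knockdown at 4649, 4778 and 3309. No knockdown library overlapped the controls. The mean of 552 ± 194 rose 3.97-fold to 2189 ± 524 after Yap knockdown, 5.32-fold to 2936 ± 1276 after Wwtr1 knockdown and 7.69-fold to 4245 ± 813 in the double knockdown (n = 3 each). The log2 fold changes were 2.01 (SE 0.34, limma adjusted p = 0.00914), 2.35 (adjusted p = 0.00161) and 2.98 (adjusted p = 7.80e-05). The call after Yap knockdown was lost without Yap siRNA replicate 1 (log2 fold change 1.85, adjusted p = 0.0506).

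Dhx58 showed the widest relative change of the members. It stood at 85.2, 245 and 84.8 with negative siRNA, so that replicate 2 was already well above the other libraries. Yap siRNA gave 2327, 1542 and 868, Wwtr1 siRNA 2565, 1841 and 629, and the double knockdown 3784, 3519 and 2655. The groups did not overlap with the controls. The mean rose from 138 ± 92.3 to 1579 ± 730 (11.4-fold), 1678 ± 978 (12.1-fold) and 3320 ± 590 (24.0-fold; SD, n = 3), and without negative siRNA replicate 2 the folds were 18.6, 19.8 and 39.1. The log2 fold changes were 3.58 (SE 0.53, limma adjusted p = 0.00523), 3.56 (adjusted p = 0.00208) and 4.75 (adjusted p = 7.36e-05).

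Eif2ak2 stood at 1246, 1908 and 1120.4 with negative siRNA, 5115, 5046 and 3247 after Yap knockdown, 5875, 5214 and 2345 after Wwtr1 knockdown, and 6282, 6526 and 5814 in the double knockdown. All 9 knockdown libraries were above the 3 controls. Its mean of 1425 ± 423 rose 3.14-fold to 4469 ± 1059, 3.14-fold to 4478 ± 1876 and 4.36-fold to 6207 ± 362 (SD, n = 3), and the log2 fold changes were 1.66 (SE 0.31, limma adjusted p = 0.0138), 1.58 (adjusted p = 0.00832) and 2.16 (adjusted p = 0.000328). The call after Yap knockdown was lost without negative siRNA replicate 3 (adjusted p = 0.0657), without Yap siRNA replicate 1 (1.55, adjusted p = 0.0718) and without Yap siRNA replicate 2 (1.56, adjusted p = 0.0670).

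**Figure D1:**
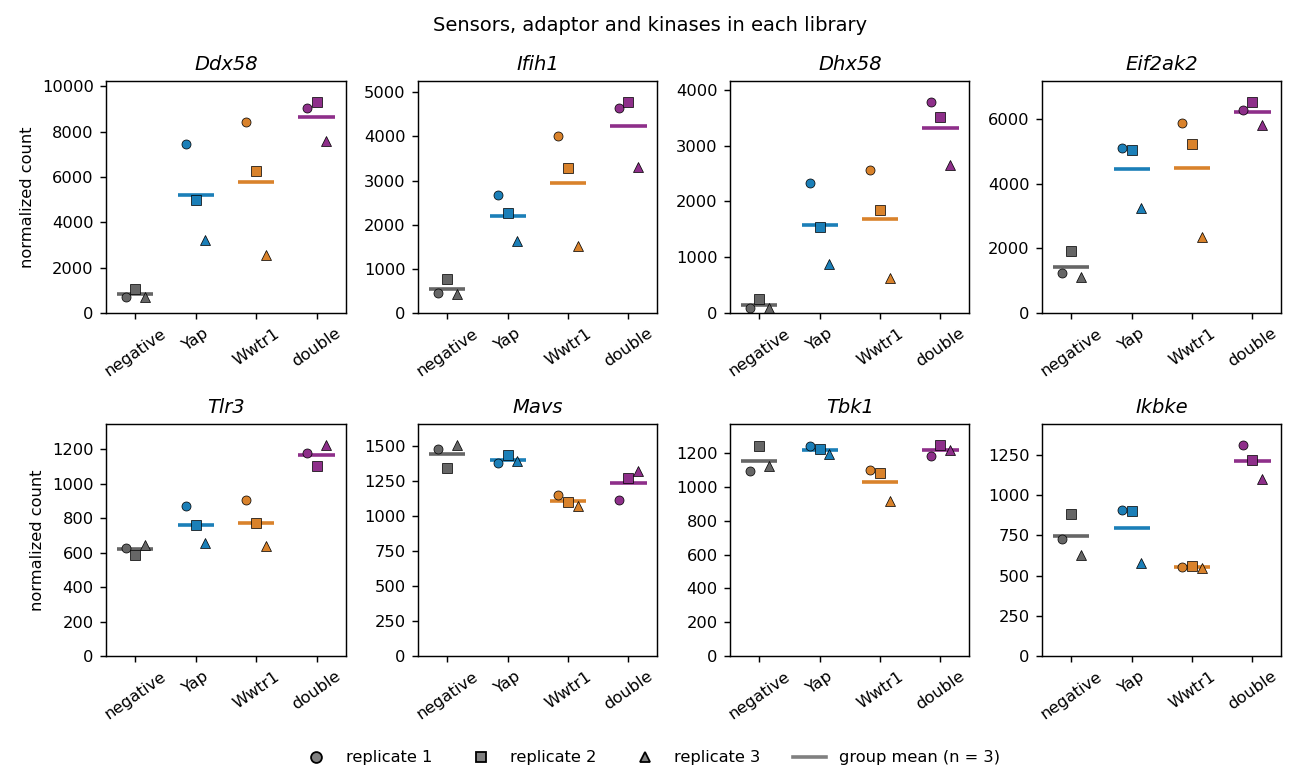
Normalized counts (vertical axis, linear, from 0) of the 8 genes in each library, by siRNA group (horizontal axis), where each point is 1 library, its shape the replicate number, and the line the group mean (n = 3). The cytosolic sensors Ddx58, Ifih1, Dhx58 and Eif2ak2 lie above all negative siRNA libraries in every knockdown library, whereas the points of Tbk1 in the double knockdown overlap those of the controls.

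5 of these genes had a promoter in the RefSeq table (assembly GRCr8), while Ddx58, Dhx58 and Ikbke, searched by symbol, older symbol and gene ID, did not. They are shown because the list holds genes that rose in all 3 knockdowns (Ifih1, Eif2ak2), a gene that rose in the double knockdown (Tlr3), and genes that did not rise (Mavs, Tbk1). Each sequence is the 100 bases before the annotated start, 5′ to 3′ on the strand of the gene. Capitals mark GAAANNGAAA, where N is any base, a core pattern of interferon-stimulated response elements, searched on both strands from 250 bases before to 50 bases after the start.
Ifih1, chr3:67683969-67684068 (minus strand): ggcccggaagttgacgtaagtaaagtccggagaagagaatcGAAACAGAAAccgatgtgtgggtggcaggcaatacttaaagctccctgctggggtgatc
Eif2ak2, chr6:21941054-21941153 (plus strand): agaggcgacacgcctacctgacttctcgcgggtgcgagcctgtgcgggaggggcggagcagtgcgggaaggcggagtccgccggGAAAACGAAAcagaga
Tlr3, chr16:53554816-53554915 (plus strand): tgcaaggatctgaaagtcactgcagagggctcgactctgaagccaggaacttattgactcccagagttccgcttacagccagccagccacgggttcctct
Mavs, chr3:138904712-138904811 (plus strand): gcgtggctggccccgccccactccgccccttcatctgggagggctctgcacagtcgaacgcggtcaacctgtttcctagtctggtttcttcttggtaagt
Tbk1, chr7:58996358-58996457 (minus strand): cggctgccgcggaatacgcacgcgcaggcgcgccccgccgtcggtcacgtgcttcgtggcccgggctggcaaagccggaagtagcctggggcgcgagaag
The match began 59 bases before the start in Ifih1 and 16 bases before it in Eif2ak2, and these letters were not found in the windows of Tlr3, Mavs and Tbk1. They occurred in 3.92% of all 33469 promoters and in 3.02% of the 9390 promoters of genes tested. The shorter pattern AANNGAAA, which overlaps the longer one, was present in Ifih1, Eif2ak2 and Tlr3. It occurred in 26.4% of all promoters and in 19% of the promoters of genes tested. A match is a description of the letters only.

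Tlr3, the endosomal sensor, did not pass the test with either siRNA alone and rose when both were given. Its 3 negative siRNA libraries held 628, 586 and 646, those after Yap knockdown 872, 759 and 657, those after Wwtr1 knockdown 905, 769 and 638, and the double knockdown 1178, 1103 and 1222. The double knockdown lay above all 9 other libraries, while the Wwtr1 siRNA libraries overlapped the controls. The mean of 620 ± 30.9 was 763 ± 108 after Yap knockdown and 771 ± 133 after Wwtr1 knockdown, and rose 1.88-fold to 1168 ± 60.3 in the double knockdown (SD, n = 3). The log2 fold changes were 0.29 (95% interval 0.00069 to 0.58, limma adjusted p = 0.252), 0.30 (0.011 to 0.59, adjusted p = 0.195) and 0.91 (SE 0.13, adjusted p = 0.000365). Tlr3 was also higher in the double knockdown than after Yap knockdown (log2 difference 0.62, limma adjusted p = 0.0103) and than after Wwtr1 knockdown (0.61, adjusted p = 0.00797). The former call was lost without Yap siRNA replicate 3 (0.52, adjusted p = 0.0505). Macrophages express Tlr3, and the macrophage marker sums in the double knockdown libraries with 1178, 1103 and 1222 for Tlr3 were 7513, 14924 and 51689; their part in the rise was not tested.

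Mavs, the mitochondrial adaptor of RIG-I and MDA5, did not rise in any comparison with negative siRNA. It stood at 1479, 1340.4 and 1502 with negative siRNA, 1377, 1433 and 1389 after Yap knockdown, 1149.9, 1097 and 1068 after Wwtr1 knockdown, and 1114, 1270.2 and 1317 in the double knockdown. The Wwtr1 siRNA libraries all lay below the controls and below the Yap siRNA libraries. After Wwtr1 knockdown its mean fell by 23.3%, from 1440 ± 87.3 to 1105 ± 41.5 (log2 fold change -0.38, SE 0.081, limma adjusted p = 0.0132), while after Yap knockdown it was 1400 ± 29.5 (log2 fold change -0.04, 95% interval -0.22 to 0.14, adjusted p = 0.843). Mavs was higher after Yap knockdown than after Wwtr1 knockdown (log2 difference 0.34, limma adjusted p = 0.0251). In the double knockdown its mean was 1234 ± 106, a change of -14.3% that missed the limit (log2 fold change -0.23, adjusted p = 0.0522) and passed it with TMM scaling (adjusted p = 0.0427), with a minimum mean of 100 (0.0464), without negative siRNA replicate 2 (0.0409) and without double knockdown replicate 3 (0.0314). Leaving out replicate 1 of the double knockdown moved the change to -0.15 (adjusted p = 0.192). The Wwtr1 siRNA call was lost without negative siRNA replicate 3 (-0.35, adjusted p = 0.0604) and without Wwtr1 siRNA replicate 2 (-0.38, adjusted p = 0.0531). The difference between Yap and Wwtr1 siRNA was lost without Yap siRNA replicate 1 (adjusted p = 0.0643), 2 (0.0777) or 3 (0.0576) and without Wwtr1 siRNA replicate 2 (0.0844) or 3 (0.0878).

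Tbk1, the kinase shared by both routes, stayed within a narrow range in all 12 libraries, from 919 to 1248. Negative siRNA libraries held 1096, 1244 and 1126, Yap siRNA libraries 1241, 1224 and 1195, Wwtr1 siRNA libraries 1099, 1081 and 919, and the double knockdown 1185, 1248 and 1219. The groups overlapped with the controls in each case, while the Yap siRNA and double knockdown libraries lay above all Wwtr1 siRNA libraries (log2 differences 0.24 and 0.24, limma adjusted p = 0.10 and 0.0667). No comparison with negative siRNA passed the limit, with log2 fold changes of 0.08 (95% interval -0.11 to 0.27, limma adjusted p = 0.657), -0.16 (-0.35 to 0.022, adjusted p = 0.271) and 0.08 (-0.11 to 0.26, adjusted p = 0.529). The intervals bound any change after Yap knockdown or in the double knockdown at 0.27 log2 units upward.

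Ikbke, the inducible relative of Tbk1, rose when both siRNAs were given and lay below the controls after Wwtr1 knockdown alone. Normalized counts were 727, 886 and 629 with negative siRNA, 911, 899 and 577 after Yap knockdown, 556, 558 and 546 after Wwtr1 knockdown, and 1309.8, 1217 and 1102 in the double knockdown. All Wwtr1 siRNA libraries were below the controls and all double knockdown libraries were above them, while the Yap siRNA libraries straddled the control range. The mean of 747 ± 129 was 795 ± 189 after Yap knockdown (log2 fold change 0.07, 95% interval -0.30 to 0.45, limma adjusted p = 0.864), and 553 ± 6.71 after Wwtr1 knockdown, a change of -25.9% (log2 fold change -0.42, SE 0.17, adjusted p = 0.160). With the replicate number as a block and without the double knockdown libraries, the latter passed the limit (adjusted p = 0.0382). In the double knockdown Ikbke rose 1.62-fold to 1210 ± 104 (log2 fold change 0.71, SE 0.17, limma adjusted p = 0.00793). It was also higher there than after Wwtr1 knockdown (1.12, adjusted p = 0.00125) and than after Yap knockdown (0.63, adjusted p = 0.0308). The latter call was lost without Yap siRNA replicate 3 (0.42, adjusted p = 0.0987), when double knockdown replicate 1 (0.57, adjusted p = 0.0944) or 2 (0.62, adjusted p = 0.0763) was left out, and in fits without the mean-variance trend (0.0522) or with only those groups (0.0864). The ratio of Ikbke to Tbk1 in the same library was 0.645 ± 0.0778 with negative siRNA, 0.650 ± 0.145 after Yap knockdown, 0.539 ± 0.0480 after Wwtr1 knockdown and 0.995 ± 0.102 in the double knockdown (SD, n = 3), a ratio of normalized counts that is compared between groups only.

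**Figure D2:**
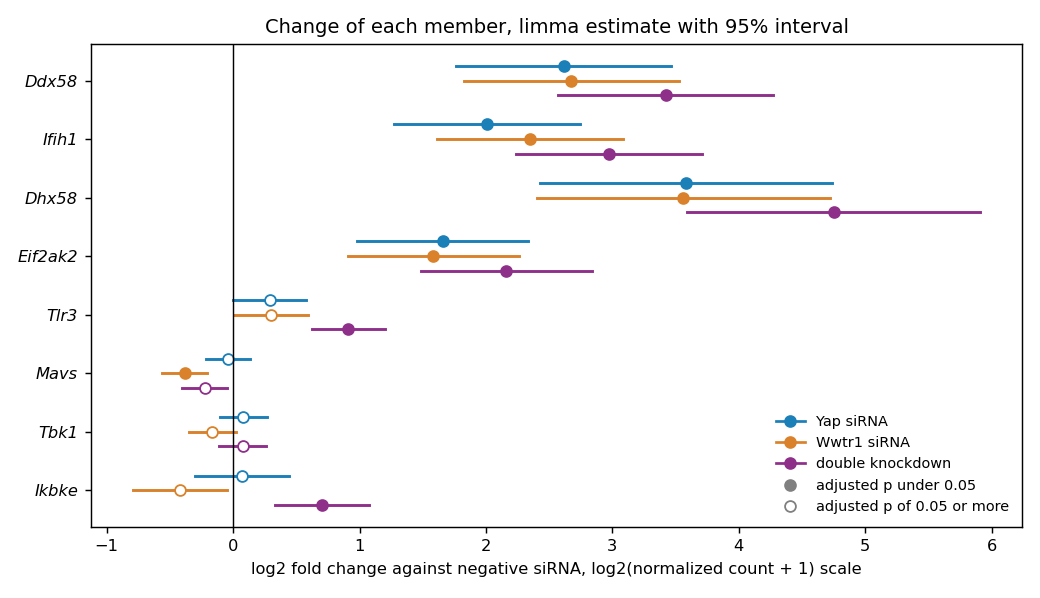
Log2 fold change of each gene against negative siRNA (horizontal axis, log2 units) with 95% intervals from limma, coloured by siRNA group, n = 3 libraries a group, filled where the adjusted p was under 0.05. Ddx58, Ifih1, Dhx58 and Eif2ak2 lie well above 0 with all 3 siRNA treatments, Tlr3 and Ikbke do so in the double knockdown, and Mavs lies below 0 after Wwtr1 knockdown.

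By count, 4 of the 8 genes rose after Yap knockdown, against 4.8% of all genes tested that passed the limit (3.02% higher), and 2 without Yap siRNA replicate 1. After Wwtr1 knockdown 4 rose and 1 fell, against 8.96% of all genes (5% higher, 3.96% lower). In the double knockdown 6 rose, against 32.8% of all genes (17.1% higher). The 3 comparisons share the same control libraries. Median log2 fold changes of the 8 genes were 0.97, 0.94 and 1.54, while the medians of all genes lay within 0.005 of 0. By order alone, with no test, 5 members lay wholly above the controls after Yap knockdown (26.1% of all genes did not overlap, in either direction), 4 above and 2 below after Wwtr1 knockdown (32.7%), and 6 above and 1 below in the double knockdown (44.6%).

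Against each other, the single knockdowns differed in 1 of the 8 genes, Mavs (8.79% of all genes passed, 4.57% higher). With the replicate number as a block they differed in 2 (10.6% of all genes passed in that fit, 5.53% higher). Ikbke was then higher after Yap knockdown as well (0.49, limma adjusted p = 0.0399, against 0.0983 without the block). In the fit with no block, the count was 0 without Yap siRNA replicate 1 or 2 or Wwtr1 siRNA replicate 2 or 3. Without Yap siRNA replicate 3 Ikbke passed (0.71, limma adjusted p = 0.0152) in place of Mavs. For Ddx58 the log2 difference of Yap minus Wwtr1 siRNA was -0.06 (95% interval -0.91 to 0.79), for Dhx58 0.02 (-1.13 to 1.18), for Eif2ak2 0.07 (-0.60 to 0.75) and for Ifih1 -0.34 (-1.07 to 0.39), intervals that leave room for a difference of over 1.5-fold either way, except that of Ifih1 upward. The double knockdown differed from Yap siRNA in 2 genes (Tlr3 and Ikbke, both higher, against 13.8% of all genes, 6.83% higher), in 0 without Yap siRNA replicate 3 and in 1 without double knockdown replicate 1 or 2, and from Wwtr1 siRNA in the same 2 genes (against 19.9%, 9.75% higher). By order alone, 6 members lay above and 1 below the Yap siRNA libraries in the double knockdown (30.5% of all genes did not overlap), 4 lay above the Wwtr1 siRNA libraries (37.3%), and 3 were higher after Yap than after Wwtr1 knockdown (31.9%). The order of the group means of normalized counts for Ddx58, Ifih1 and Dhx58 was negative, Yap, Wwtr1 and double (on the log2 scale Yap was above Wwtr1 for Dhx58), and neighbours beyond the first step did not pass the limit in the fit without a replicate block. For Ddx58, Ifih1 and Dhx58 the log2 difference of the double from Yap siRNA was 0.81, 0.97 and 1.17 (limma adjusted p = 0.194, 0.0791 and 0.167), and from Wwtr1 siRNA 0.74, 0.63 and 1.19 (adjusted p = 0.203, 0.216 and 0.136). With only the groups compared, the difference of the double from Yap siRNA passed for Ifih1 (adjusted p = 0.0368) and not for Ikbke, and it passed for Ifih1 without Wwtr1 siRNA replicate 3 (0.0263).

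The double knockdown was next set against the sum of the single effects. This cannot settle whether the losses of the targets add up, since the siRNA amount in the double knockdown is not given. Wwtr1 itself was higher in the double knockdown than after Wwtr1 knockdown alone (log2 difference 0.59, limma adjusted p = 0.00804). Yap1 differed by 0.67 from its level after Yap knockdown (adjusted p = 0.0623), by 0.86 (0.0369) or 0.83 (0.0486) without double knockdown replicate 1 or 2, and by 0.33, which did not pass, without replicate 3. The part of this weaker depletion in what follows was not tested. The sum of the single log2 fold changes was 5.29 for Ddx58, 4.36 for Ifih1, 7.14 for Dhx58 and 3.24 for Eif2ak2, against 3.42, 2.98, 4.75 and 2.16 in the double knockdown, whereas for Tlr3 the sum was 0.59 against 0.91 and for Ikbke -0.34 against 0.71. The interaction (double minus Yap minus Wwtr1 plus negative) was tested by limma. It passed the limit in 0 of the 8 genes, against 1.03% of all genes. Without Wwtr1 siRNA replicate 3 it passed in 1 (Ddx58, limma adjusted p = 0.0411), and the share of all genes in that fit was not counted. In the fit of all libraries, 5 of the 8 passed at an unadjusted p under 0.05 (62.5%), against 14% of all genes. It was -1.87 for Ddx58 (SE 0.55, limma adjusted p = 0.135), -1.38 for Ifih1 (adjusted p = 0.211), -2.39 for Dhx58 (adjusted p = 0.164), -1.08 for Eif2ak2 (adjusted p = 0.284) and 1.05 for Ikbke (SE 0.24, adjusted p = 0.0617). Counted in normalized counts instead, with no test, the double knockdown mean of Ddx58 was 7817 above the control mean, against a sum of 9330 from the single siRNAs. The corresponding values were 3693 against 4021 for Ifih1, 3181 against 2981 for Dhx58, 4783 against 6097 for Eif2ak2, 548 against 294 for Tlr3 and 463 against -146 for Ikbke. Thus Dhx58 was below the sum of the single effects on the log2 scale and above it in normalized counts.

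**Figure D3:**
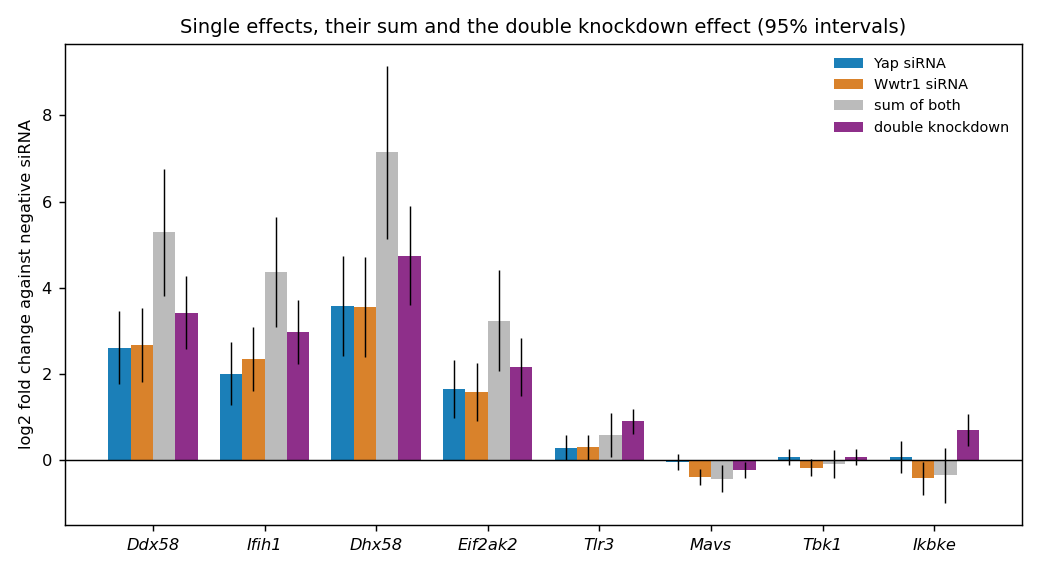
Log2 fold change against negative siRNA (vertical axis, log2 units) after Yap knockdown, after Wwtr1 knockdown, the sum of both, and in the double knockdown, with 95% intervals from the limma fit. The sum exceeds the double knockdown for Ddx58, Ifih1, Dhx58 and Eif2ak2, and lies below it for Tlr3 and Ikbke.

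The cytosolic sensors also varied together between libraries of one group. In the Yap siRNA group replicate 3 was the lowest for 7 of the 8 genes (32.1% of all genes had their lowest value there), with Mavs the exception, and after Wwtr1 knockdown replicate 3 was the lowest for 8 of 8 (35.4%). In the double knockdown replicate 3, the library with the most Yap1 and Wwtr1 left, was the lowest for 5 of 8 (38.4%). With negative siRNA replicate 2 was the highest for 6 of 8 (32.8%). Replicate 3 also kept the most of its target in the single knockdowns, 0.12 log2 units above the group mean for Yap1 and 0.16 for Wwtr1. The part of the target left in this order was not tested. The ratio of Ddx58 to the same-numbered control library was 10.7, 4.70 and 4.58 after Yap knockdown, and 12.2, 5.89 and 3.65 after Wwtr1 knockdown. For Dhx58 it was 27.3, 6.30 and 10.2, then 30.1, 7.52 and 7.42. Every ratio was above 1 and replicate 1 gave the highest in both groups.

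Across the 12 libraries, deviations from the group mean on the log2 scale had Pearson correlations of 0.952 to 0.980 among Ddx58, Ifih1, Dhx58 and Eif2ak2, values given without a test because the libraries share normalization. Correlations of these 4 with Isg15, a ubiquitin-like interferon-stimulated protein, were 0.931 to 0.991. Isg15 stood at 55.4, 252 and 74.4 with negative siRNA, 3759, 2004 and 840.02 after Yap knockdown, 4981, 2997 and 815 after Wwtr1 knockdown, and 7643, 7107 and 4471 in the double knockdown. Tbk1 correlated with the 4 sensors at 0.862 to 0.919, while Tlr3 did so at 0.591 to 0.787, Ikbke at 0.584 to 0.673 and Mavs at -0.212 to -0.011. The sensors' deviations correlated with those of Yap1 at -0.208 to -0.022 and with those of Wwtr1 at -0.496 to -0.330. The cardiomyocyte marker sum was lowest in replicate 3 of each group, and its part in the spread of the sensors was not tested.

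**Figure D4:**
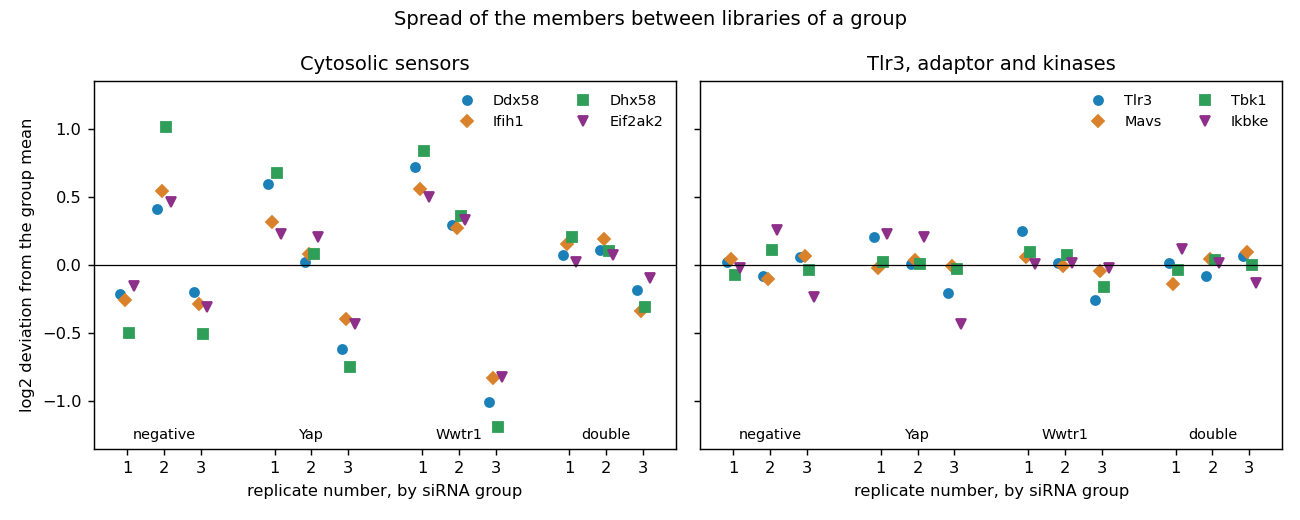
Deviation of each library from its group mean (vertical axis, log2 units) by replicate number within each siRNA group, for the cytosolic sensors and for Tlr3, Mavs, Tbk1 and Ikbke. The sensors move together, with replicate 2 highest with negative siRNA and replicate 3 lowest in the knockdown groups, whereas the other 4 genes spread less than each sensor with negative siRNA and after Wwtr1 knockdown.

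Ratios between sensors also varied by group. The ratio of Ddx58 to Ifih1 within a library was 1.51 ± 0.123 with negative siRNA, 2.32 ± 0.421 after Yap knockdown, 1.90 ± 0.216 after Wwtr1 knockdown and 2.06 ± 0.197 in the double knockdown (SD, n = 3). The ratio of Dhx58 to Ddx58 was 0.158 ± 0.0624, 0.297 ± 0.0231, 0.281 ± 0.0307 and 0.383 ± 0.0340. These are ratios of normalized counts, compared between groups only and not tested.

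The genes whose pattern over the 12 libraries was most like each sensor were sought among those with a mean of at least 100, by Pearson correlation of log2(normalized count + 1). For Ddx58 they were Sp100, Lgals9, Parp9, Uba7 and Irgm (r = 0.997 to 0.993), and for Ifih1 they were Ifi44, Trim34, Irf9, Oasl2 and Ifi35 (0.997 to 0.995). For Dhx58 they were Parp9, Isg15, Uba7, Rtp4 and Irf7 (0.998 to 0.995), and for Eif2ak2 Stat2, Ifit3, Trim25, Cmpk2 and Parp9 (0.992 to 0.989). Parp9 stood in 3 of these 4 lists. Tlr3 had another set, Slamf8, Il18bp, Slc35f6, Serping1 and C4b (0.984 to 0.964), and none of these genes was in the lists of the other sensors. The libraries share group differences, so such values describe the pattern and carry no test.

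Of 75 other genes of the pathway, 67 stood in the table, 66 were tested and 8, among them Ifnb1 and Dicer1, were not analysed here. After Yap knockdown 3 of 66 rose (4.55%, against 4.8% of all genes passing). They were Irf7, the interferon-inducible transcription factor (log2 fold change 4.13, limma adjusted p = 0.00393), Trim25, a ubiquitin ligase that acts on RIG-I (1.54, adjusted p = 0.0138), and Adar, which edits double-stranded RNA (1.37, adjusted p = 0.0119). The count was 5 with the replicate number as a block (7.58%, against 7.36% of all genes in that fit) and 14 when the block was fitted without the double knockdown libraries (20.9%, against 16.3%), and it was 1 without negative siRNA replicate 3, without Yap siRNA replicate 1 or without Yap siRNA replicate 2. After Wwtr1 knockdown 5 rose and 3 fell (12.1%, against 8.96% of all genes), or 17 with the block and without the double knockdown libraries (25.4%, against 21.7%), and 5 without negative siRNA replicate 3, Wwtr1 siRNA replicate 1 or Wwtr1 siRNA replicate 2. Irf7 (4.20, adjusted p = 0.00130), Adar (1.26, adjusted p = 0.00825), Trim25 (1.22, adjusted p = 0.0216), Tbkbp1, a TBK1-binding adaptor (0.90, adjusted p = 0.00596), and Zc3hav1, an RNA-binding antiviral protein (0.75, adjusted p = 0.00545), rose. Irf3, the constitutive partner of Irf7 (-0.43, adjusted p = 0.00838), Eif2ak1, a stress kinase for eIF2 alpha (-0.40, adjusted p = 0.0177), and Pcbp2 (-0.26, adjusted p = 0.0371) fell.

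In the double knockdown 19 of the 66 rose and 9 fell (42.4%, against 32.8% of all genes). Irf7 went from 197, 853 and 334 with negative siRNA to 18272, 19059 and 17991 (log2 fold change 5.59, limma adjusted p = 4.45e-05), with no overlap. Trim25 (1.97, adjusted p = 0.000388), Adar (1.95, adjusted p = 0.000147), Zc3hav1 (0.85, adjusted p = 0.000643) and Tbkbp1 (0.74, adjusted p = 0.00482) rose as well. Rnf125, a ubiquitin ligase, also passed (adjusted p = 0.0443), but it was listed at 0 in a pair of negative siRNA libraries, so no fold is given. Among the adaptors, Traf3 rose (0.28, adjusted p = 0.0191) and so did Unc93b1, a chaperone of endosomal receptors (0.54, adjusted p = 0.0333). Irf3 fell (-0.34, adjusted p = 0.00899), as did Tarbp2, a partner of Dicer (-0.31, adjusted p = 0.0414). Several others did not pass: Prkra, an activator of PKR (-0.15, adjusted p = 0.104), Ago2 (-0.18, adjusted p = 0.527), Eif2ak1 (-0.15, adjusted p = 0.221), Eif2ak3 (0.05, adjusted p = 0.700), Eif2ak4 (-0.01, adjusted p = 0.969) and Tlr7 (-0.04, adjusted p = 0.965).

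By role, in the double knockdown 9 of 15 cofactors and regulators of RIG-I-like receptors changed (4 up, 5 down), 4 of 13 other double-stranded RNA-binding and RNA interference proteins (3 up, 1 down), 1 of 6 other eIF2 alpha kinases and phosphatase subunits (down), 4 of 12 adaptors and scaffolds (all up), 6 of 10 transcription factors and kinases downstream (4 up, 2 down), 3 of 9 other endosomal sensing genes (all up) and the 1 interferon receptor gene tested (up), against 32.8% of all genes. The interaction passed the limit in 0 of 66 (limma, against 1.03% of all genes), and 6 had an unadjusted p under 0.05 (9.09%, against 14% of all genes).

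**Figure D5:**
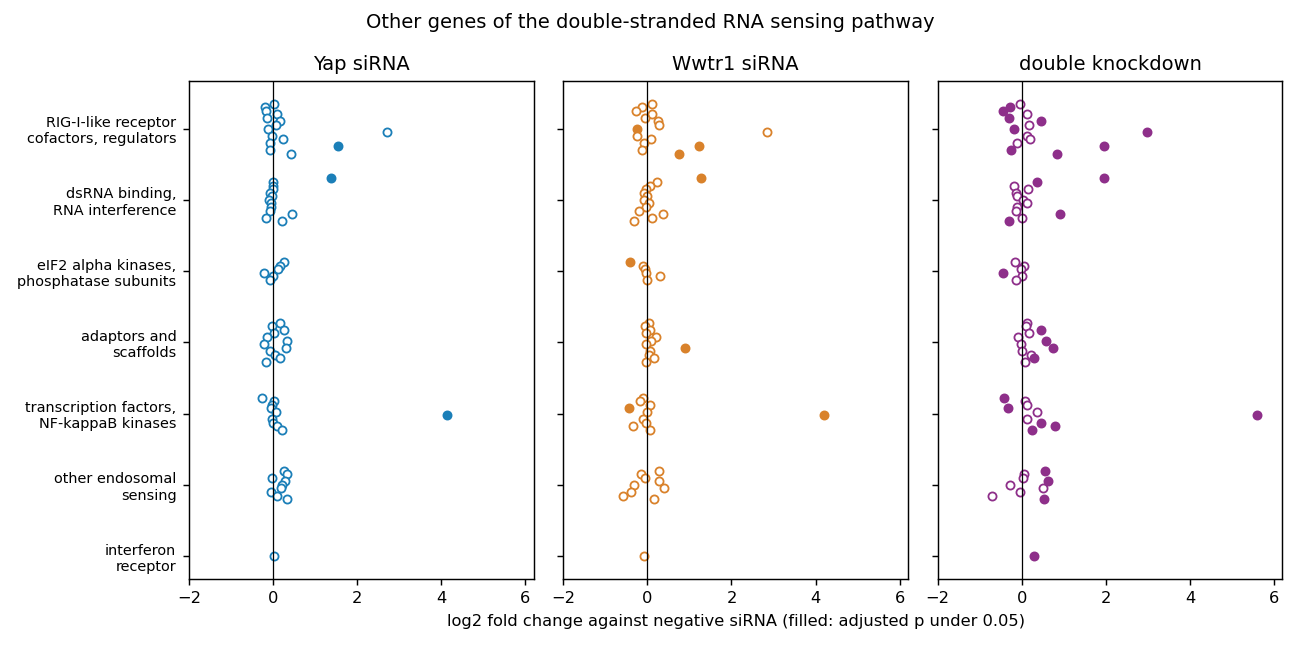
Log2 fold changes against negative siRNA (horizontal axis, log2 units) of the 66 other pathway genes tested, in rows by role, with 1 panel per siRNA group and filled points for an adjusted p under 0.05. Irf7 stands furthest from 0 in all 3 groups, and most of the others lie near 0.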

How the data were processed

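Reads had been trimmed with Trim Galore 0.6.5, aligned with HISAT2 to rn6 and quantified with StringTie2 per the labels and the study. The authors deposited a signal, DESeq2-normalized counts, which are counts divided by a size factor. Strand was not given in the sources used here. The authors' tables of fold changes and p-values were not used. Libraries were grouped by their titles. The 8 genes and the pathway and marker lists were chosen with earlier results of these data known. limma 3.58.1 (R 4.3.3) was fitted with a mean-variance trend on log2(normalized count + 1) over all 12 libraries and 11871 genes with a mean of at least 10, with Benjamini-Hochberg adjustment over all of them and a limit of 0.05. The procedure was tested on simulated data. A gene was named if it was a member, a targeted gene or Isg15, one of a fixed set of pathway genes, one of the 5 called pathway genes of largest change in each comparison with negative siRNA, or one of the 5 genes most correlated with a sensor. A gene that this rule would name is not reported here. Replicates came from separate litters per the study, but the labels do not say that a number marks a litter. Deviations of same-numbered libraries correlated at 0.104 to 0.276 in all 9 pairs among the negative, Yap and Wwtr1 siRNA groups, all above 0.1, so the numbers were taken to pair these 3 groups. In pairs with the double knockdown they correlated at -0.127 to 0.180, and no pairing was taken. Pairs with different numbers were not correlated, so the limit of 0.1 was a working choice and does not show that a number marks a litter. Tests came from the fit without a block unless a block is named. Sums of steps, the smallest difference between values of a library, were 33886920 to 41059839, which sets the counting precision. Alternatives were other pseudocounts, filters, TMM scaling, no trend, only the compared groups, the replicate block and leaving out each library. Promoters came from the RefSeq table for GRCr8, a newer assembly than that of the files, and its coordinates are of GRCr8 alone.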

Additional observations from a re-analysis of the deposited data

Results flagged for a closer look

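Ikbke was picked out because Wwtr1 siRNA moved every library one way alone and the other way beside Yap siRNA. Alone, its 3 libraries (556, 558 and 546) lay below all negative siRNA libraries (727, 886 and 629), and beside Yap siRNA they (1309.8, 1217 and 1102) lay above all Yap siRNA libraries (911, 899 and 577). The test of that difference, the interaction, was 1.05 log2 units (SE 0.24, adjusted p = 0.0617 by limma), which missed the limit. It passed with the replicate number as a block over the 12 libraries (limma adjusted p = 0.0238), where the double knockdown shares only a number with the other groups. The test used the values that picked Ikbke out, so it is no separate support. Only the members and some named pathway genes were searched, and the share of all genes with this pattern was not counted.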

How the results depend on the processing

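Of 1136 alternative values of the 8 genes, 1088 kept their direction and side of the limit, 17 no longer passed, 15 newly passed and 16 changed sign, all of the last on leaving out 1 library and none of them on a called value. On leaving out each library, the affected values ranged from -0.043 to 0.29 for Ikbke with Yap siRNA against negative siRNA, from -0.022 to 0.016 for Tbk1 in the double knockdown against Yap siRNA, and, for Yap minus Wwtr1 siRNA, from -0.56 to 0.30 for Ddx58, -0.57 to 0.44 for Dhx58, -0.34 to 0.32 for Eif2ak2 and -0.14 to 0.11 for Tlr3. Of the targeted genes, which those counts leave out, the siRNA against the other target gave values that also changed sign, from -0.092 to 0.022 for Wwtr1 with Yap siRNA and from -0.097 to 0.073 for Yap1 with Wwtr1 siRNA. Pathway genes called with Yap siRNA went from 3 to 5 with the replicate number as a block and to 14 with that block without the double knockdown libraries, and with Wwtr1 siRNA from 8 to 17 with the latter. Members that differed between the double knockdown and Yap siRNA went from 2 to 1 without the mean-variance trend. With only those groups Ikbke (limma adjusted p = 0.0864) no longer passed while Ifih1 (0.0368) did. Members that differed between Yap and Wwtr1 siRNA went from 1 to 2 with either block. The share of all genes in that comparison went from 8.79% to 10.6% with the block, and to 23% with the block and without the double knockdown libraries. The interaction went from 0 to 2 members with the block over 12 libraries (Ddx58 limma adjusted p = 0.0462, Ikbke 0.0238), and to 1 without Wwtr1 siRNA replicate 3 (Ddx58 limma adjusted p = 0.0411). The share of all genes with an interaction in those fits was not counted, so these counts have no background. With the block over 12 libraries Ifih1 differed between the double knockdown and Yap siRNA (limma adjusted p = 0.0145) and Dhx58 between the double knockdown and Wwtr1 siRNA (0.0471). The cause was not tested. Leaving out 1 library gave 2 to 4 members called with Yap siRNA, 4 to 5 with Wwtr1 siRNA and 6 to 7 in the double knockdown, 0 to 3 for the double against Yap siRNA, 2 to 2 against Wwtr1 siRNA, 0 to 1 for Yap against Wwtr1 siRNA and 0 to 1 for the interaction. Pathway genes gave 1 to 4, 5 to 10 and 21 to 27. TMM scaling moved the median of all genes by at most 0.013. edgeR and DESeq2 were planned on whole reads and not run, since the value of 1 read could not be settled for 6 of the 12 libraries.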
